A study of Arabidopsis thaliana with 12 samples.

Results

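The genes described here are 34 nuclear genes of Arabidopsis thaliana that encode subunits of photosystem I, subunits of photosystem II and components of photosynthetic electron transport, in ageing leaves of the Col ecotype and of gvs1-1. They were listed by locus from annotated roles, with earlier results of these data known, and no measured value enters the rule. They are 34 of the 19152 genes tested: 12 of photosystem I, 12 of photosystem II and 10 of electron transport. RNA came from the third and the fourth leaves of plants grown in soil under a cycle of 16 h of light and 8 h of dark, taken after 23 or 37 days and 5 h after the lights came on. The 4 groups were Col at DAE14, Col at DAE28, gvs1-1 at DAE14 and gvs1-1 at DAE28, with 3 independent biological samples each, and no group carried another stated allele or treatment. What DAE stands for is not given by the labels, nor is the locus of gvs1. Each sample was labelled with Cy3 and hybridised to its own one-colour Agilent array. Levels are the log2 processed signal of a gene's probe relative to the 75th percentile of its array (called relative signal), so a difference of 1 is a 2-fold difference.

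In the thylakoid membrane of the chloroplast, photosystem II uses light to take electrons from water, the cytochrome b6f complex and plastocyanin pass them on, and photosystem I lifts them to ferredoxin, from which ferredoxin-NADP reductase makes NADPH while the ATP synthase uses the proton gradient. The reaction centre proteins of both photosystems are encoded in the plastid genome, so the nuclear genes described here encode mainly the peripheral, lumenal and stromal subunits and the mobile carriers around them. In senescing leaves the photosynthetic apparatus is dismantled and its nitrogen is exported.

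All 8 leaf markers (small subunits of Rubisco, Rubisco activase, antenna proteins and carbonic anhydrase) were well above background on every array, and the flower and meristem genes AP1, AP3, STM and WUS were above it on no array. The 75th percentile of an array's processed signal was 704 to 895 on the 6 arrays of DAE14 and 1172 to 1577 on those of DAE28, and 0 spots were saturated. Arrays lay on 3 slides scanned on 2 days, and no slide held both genotypes at the same stage, so genotype and slide cannot be fully told apart. Slide 1 held Col DAE14 replicates 1 to 3 and Col DAE28 replicate 1, slide 2 held Col DAE28 replicates 2 and 3 with gvs1-1 DAE14 replicates 1 and 2, and slide 3 held the remaining arrays. All 34 genes were measured. Each of their 85 kept probes was above background on all 12 arrays, and all 34 genes were within the brightest 10% of the genes tested.

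The age comparison asks how far these transcripts fall as the leaf senesces. In Col all 34 genes fell from DAE14 to DAE28 at an adjusted p under 0.05 (limma with Benjamini-Hochberg adjustment over all genes), where 36.3% of all genes tested were lower. The median change was -2.49 in photosystem I, -2.19 in photosystem II and -2.62 in electron transport, against 0.01 over all genes tested and -0.17 over the brightest 10%. Changes ran from -3.81 ± 0.14 (SE) for PSBQA, a 14-fold fall, to -1.63 ± 0.11 for PSBO1, a 3.09-fold fall. Each SE is that of the limma fit, which pools the spread over all 4 groups of 3 samples and moderates it across genes. It is not the spread of the 2 groups compared. In gvs1-1 all 34 genes also fell, where 30.0% of all genes were lower, with medians of -1.0, -0.96 and -1.48 in the same order against 0.06 over all genes. Changes there ran from -2.93 ± 0.35 for PSB28 to -0.55 ± 0.20 for PSBR. In neither genotype did the 3 samples of DAE14 overlap with the 3 of DAE28 for any of the 34 genes; of all genes tested 37.7% in Col and 33.1% in gvs1-1 lay lower at DAE28 without overlap. The directions in Col held under every scaling tried, but with quantile normalization 30 of the 34 genes passed there, with medians of -1.06, -0.66 and -1.71, and PSAO, PSBO1, PSBP-1 and PSBR did not. In gvs1-1 only 19 passed as lower with quantile normalization, 24 with cyclic loess and 26 in the authors' table. With quantile normalization the gvs1-1 medians were -0.22, -0.17 and -0.88, and PSAD-1, PSAF, PSBO1, PSBQ-2, PSBR, PSBW and PSBX had values from 0.002 to 0.28 in place of a fall.

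The arrays come from whole leaf tissue, in which fewer cells of a type and less RNA per cell cannot be told apart. Over the same samples the summed level of the 8 leaf markers, a sum of signals relative to the 75th percentile, was 2397 to 2815 in Col at DAE14 and 510 to 570 at DAE28, and in gvs1-1 it was 1531 to 1758 and 752 to 935. All 10 senescence markers, among them SAG12, NAP and NYE1, rose in both genotypes, with summed levels of 30.0 to 33.1 and 381 to 404 in Col and of 33.1 to 38.9 and 109 to 143 in gvs1-1. Vascular markers fell in 7 of 8 cases in each genotype, with sums of 19.6 to 24.2 and 7.99 to 9.65 in Col and of 23.6 to 25.4 and 9.98 to 10.9 in gvs1-1. All 5 measured epidermis markers fell as well. Of 6 guard cell markers 3 fell in Col and 1, KAT1, rose by 1.21 ± 0.25, and 4 fell in gvs1-1. Their sum, in which TGG1 and TGG2 were the brightest at DAE14, was 84.6 to 108 at DAE14 and 3.05 to 4.28 at DAE28 in Col, and 77.3 to 97.8 and 2.45 to 2.67 in gvs1-1. The part of these cell types in the changes described here was not tested.

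**Figure D1:**
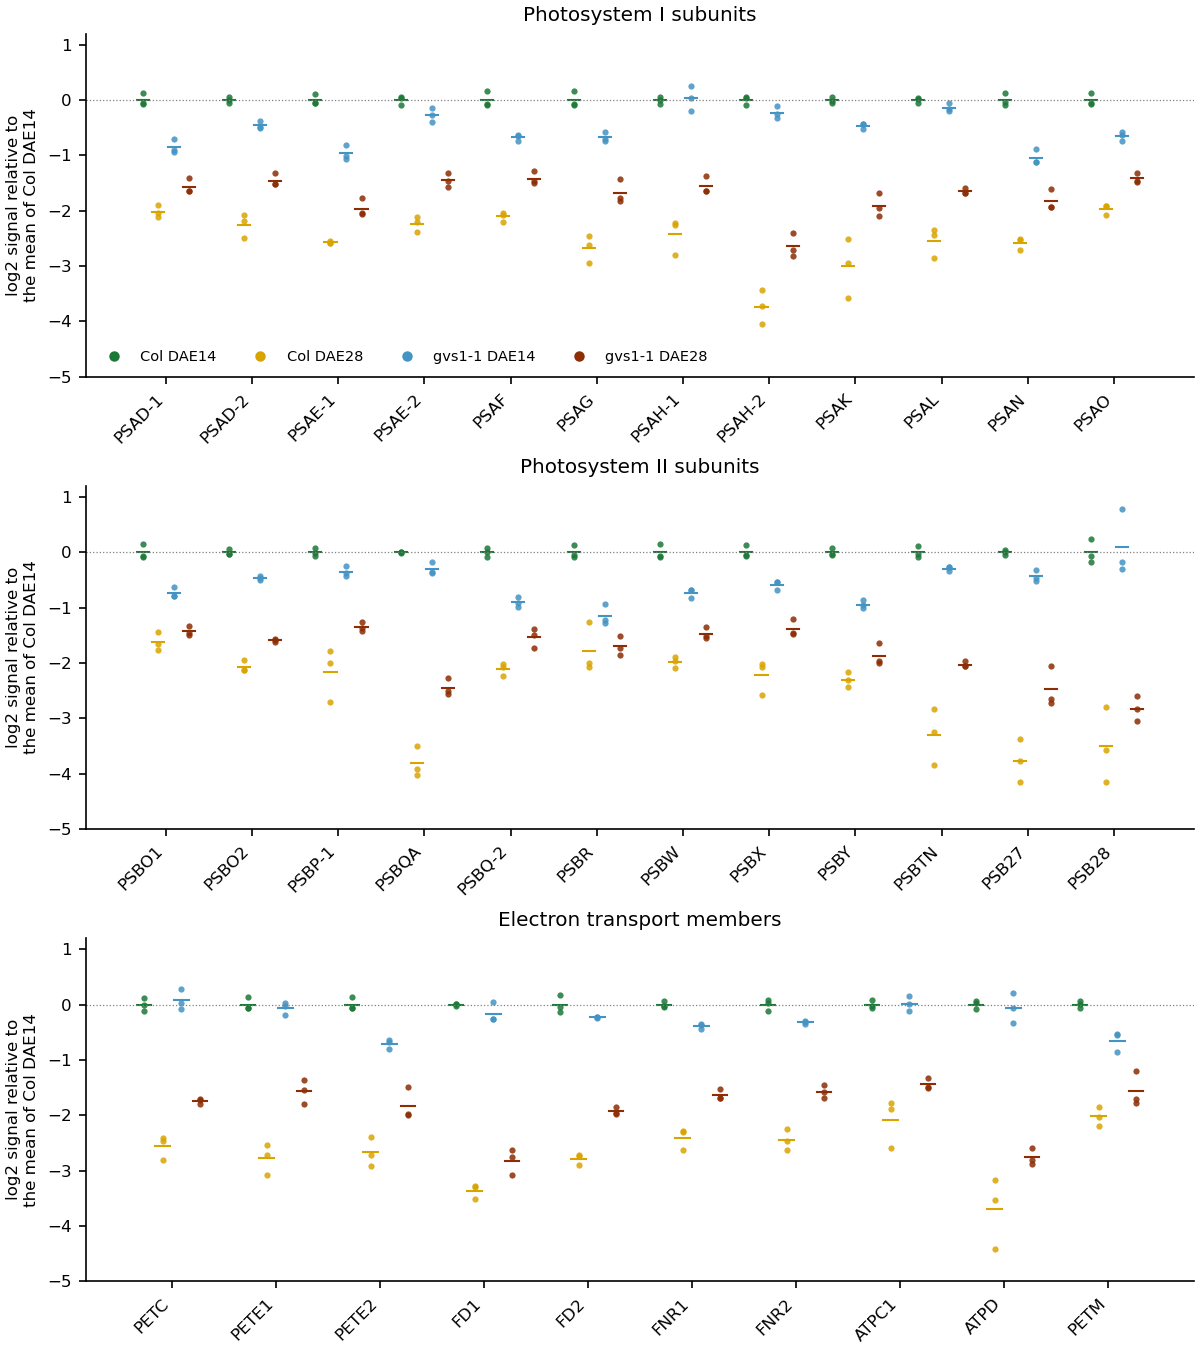
Relative signal of each of the 34 genes on each of the 12 arrays, on a log2 scale and set relative to that gene's mean in Col at DAE14; points are samples and short lines are group means of 3 samples. In every gene the means of both DAE28 groups lie below the means of both DAE14 groups, and Col at DAE28 has the lowest mean; with quantile normalization 7 genes did not fall in gvs1-1.

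Among photosystem I genes the largest and the smallest falls in Col were those of PSAH-2 and PSAO, both of which encode subunits on the side of the complex where light-harvesting antenna docks during state transitions. PSAH-2 (AT1G52230) had relative signals of 5.29, 5.41 and 5.43 in Col at DAE14, 1.33, 1.65 and 1.95 in Col at DAE28, 5.26, 5.12 and 5.05 in gvs1-1 at DAE14, and 2.56, 2.67 and 2.97 in gvs1-1 at DAE28. Its age change was -3.73 ± 0.16 in Col and -2.41 ± 0.16 in gvs1-1. PSAO (AT1G08380) stood at 8.43, 8.62 and 8.45 in Col at DAE14, 6.42, 6.58 and 6.59 in Col at DAE28, 7.76, 7.88 and 7.93 in gvs1-1 at DAE14, and 7.03, 7.05 and 7.19 in gvs1-1 at DAE28. Its stages were apart in both genotypes, with age changes of -1.97 ± 0.10 in Col and -0.77 ± 0.10 in gvs1-1. With quantile normalization neither passed (-0.29 in Col and -0.02 in gvs1-1), and the gvs1-1 change also did not pass with cyclic loess (-0.18) and in the authors' table (-0.24).

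PSAN (AT5G64040), a lumenal subunit that helps plastocyanin react with photosystem I, had the largest difference between the genotypes' age changes of all 34 genes. Its relative signals were 7.87, 8.08 and 7.92 in Col at DAE14, 5.25, 5.44 and 5.42 in Col at DAE28, 6.85, 6.83 and 7.08 in gvs1-1 at DAE14, and 6.03, 6.02 and 6.35 in gvs1-1 at DAE28. The 4 groups did not overlap, and the Col samples were the highest at DAE14 and the lowest at DAE28. PSAN fell by 2.59 ± 0.12 in Col and by 0.79 ± 0.12 in gvs1-1, a difference of 1.80 ± 0.17 (limma adjusted p = 0.002). In gvs1-1 this change was -0.04 with quantile normalization, -0.29 with cyclic loess and -0.16 in the authors' table, none of them passing.

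The ferredoxin-docking subunits on the stromal side, PSAD and PSAE, are each encoded by a pair of genes. PSAD-1 (AT4G02770) had relative signals of 8.08, 8.27 and 8.10 in Col at DAE14, 6.11, 6.26 and 6.04 in Col at DAE28, 7.22, 7.24 and 7.44 in gvs1-1 at DAE14, and 6.51, 6.51 and 6.75 in gvs1-1 at DAE28, and PSAE-1 (AT4G28750) had 7.70, 7.86 and 7.71 in Col at DAE14, 5.17, 5.18 and 5.22 in Col at DAE28, 6.70, 6.74 and 6.94 in gvs1-1 at DAE14, and 5.71, 5.69 and 5.98 in gvs1-1 at DAE28. In both genes the Col samples were above the gvs1-1 samples at DAE14 and below them at DAE28. PSAD-1 changed by -2.01 ± 0.11 in Col and by -0.71 ± 0.11 in gvs1-1 (0.09 with quantile normalization), and PSAE-1 by -2.57 ± 0.11 and -1.0 ± 0.11. PSAH-1 (AT3G16140), the second gene of the subunit that PSAH-2 encodes, read 5.87, 5.75 and 5.82 in Col at DAE14, 3.01, 3.59 and 3.56 in Col at DAE28, 6.08, 5.85 and 5.62 in gvs1-1 at DAE14, and 4.18, 4.17 and 4.44 in gvs1-1 at DAE28. Its genotypes overlapped at DAE14 and were apart at DAE28, and its difference in age change, 0.84 ± 0.24 (limma adjusted p = 0.038), was the smallest in photosystem I. That call was lost when any 1 of 8 arrays was left out (0.72 to 0.88, limma adjusted p = 0.057 to 0.086): Col DAE14 replicates 1, 2 and 3, gvs1-1 DAE14 replicates 2 and 3, and gvs1-1 DAE28 replicates 1, 2 and 3. The other photosystem I genes, PSAD-2, PSAE-2, PSAF (a plastocyanin-docking subunit), PSAG and PSAK (which contact the antenna) and PSAL, all fell, with changes of -3.0 to -2.10 in Col and of -1.51 to -0.75 in gvs1-1; PSAF had a value of 0.01 there with quantile normalization.

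Photosystem II genes spanned the widest range. PSBQA (AT4G21280) and PSBQ-2 (AT4G05180) both encode the PsbQ protein of the oxygen-evolving complex. PSBQA had relative signals of 7.05, 7.05 and 7.03 in Col at DAE14, 3.02, 3.13 and 3.54 in Col at DAE28, 6.87, 6.68 and 6.66 in gvs1-1 at DAE14, and 4.53, 4.48 and 4.76 in gvs1-1 at DAE28, the largest fall of all 34 genes in Col. PSBQ-2 had 7.48, 7.66 and 7.58 in Col at DAE14, 5.50, 5.56 and 5.33 in Col at DAE28, 6.66, 6.59 and 6.76 in gvs1-1 at DAE14, and 5.85, 6.09 and 6.19 in gvs1-1 at DAE28, and its age change in gvs1-1, -0.63 ± 0.11, was 0.298 of that in Col, -2.11 ± 0.11. This was the smallest such share among the 34 genes. The gvs1-1 value was 0.14 with quantile normalization and -0.15 with cyclic loess, and neither passed. The share is that of the brightest probe, and the other kept probe of PSBQ-2 changed by -2.27 in Col and by -1.26 in gvs1-1.

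PSBO1 (AT5G66570) encodes the main form of the manganese-stabilising protein of the same complex. Its relative signals were 8.68, 8.91 and 8.69 in Col at DAE14, 7.31, 7.10 and 6.98 in Col at DAE28, 7.96, 7.97 and 8.13 in gvs1-1 at DAE14, and 7.30, 7.26 and 7.43 in gvs1-1 at DAE28, so that the genotypes were apart at DAE14 and overlapped at DAE28. PSBO1 fell by 1.63 ± 0.11 in Col, the smallest fall of the 34 genes there, and by 0.69 ± 0.11 in gvs1-1; with quantile normalization the values were -0.15 and 0.07 and neither passed.

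PSBR (AT1G79040), a subunit that helps PsbP bind, had the least settled behaviour. Its relative signals were 8.56, 8.73 and 8.53 in Col at DAE14, 7.34, 6.60 and 6.52 in Col at DAE28, 7.33, 7.38 and 7.67 in gvs1-1 at DAE14, and 6.88, 6.75 and 7.09 in gvs1-1 at DAE28. Col DAE28 replicate 1 stood above the other two of its group, and above all 3 gvs1-1 samples of that stage. Its age change in gvs1-1, -0.55 ± 0.20 (limma adjusted p = 0.036), did not pass without gvs1-1 DAE14 replicate 2 or 3 (-0.59 and -0.45) or without gvs1-1 DAE28 replicate 1 or 2 (-0.54 and -0.47). Adjusted p was 0.057 to 0.12 in these 4 fits. With quantile normalization PSBR passed in the other direction in gvs1-1, at 0.28 (limma adjusted p = 0.026), and it had 0.03 with cyclic loess and 0.16 in the authors' table. In Col its fall of 1.79 ± 0.20 became -0.22 with quantile normalization and -0.001 in the authors' table, and neither passed.

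PSB27 (AT1G03600) and PSB28 (AT4G28660) encode proteins that attend photosystem II during assembly and repair and do not belong to the mature core. PSB27 had relative signals of 4.84, 4.82 and 4.76 in Col at DAE14, 0.66, 1.03 and 1.43 in Col at DAE28, 4.49, 4.35 and 4.29 in gvs1-1 at DAE14, and 2.08, 2.16 and 2.75 in gvs1-1 at DAE28. PSB28 had 4.92, 4.50 and 4.60 in Col at DAE14, 0.52, 1.1 and 1.87 in Col at DAE28, 5.45, 4.50 and 4.37 in gvs1-1 at DAE14, and 2.08, 1.83 and 1.62 in gvs1-1 at DAE28, with gvs1-1 DAE14 replicate 1 above the others of its group. PSB27 fell by 3.77 ± 0.21 in Col and by 2.05 ± 0.21 in gvs1-1, the largest difference in age change within photosystem II (1.72 ± 0.29). PSB28 fell by 3.51 ± 0.35 and 2.93 ± 0.35, and its difference, 0.58 ± 0.50 (limma adjusted p = 0.44), was the smallest of the 34 genes and did not pass. Single arrays moved it: it was 0.25 without Col DAE28 replicate 1, 0.93 without Col DAE28 replicate 3, 0.91 without gvs1-1 DAE14 replicate 1 and 0.38 without gvs1-1 DAE14 replicate 3, and on scan day 1 alone it was 1.62 and passed (limma adjusted p = 0.043).

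PSBY (AT1G67740), a small membrane subunit, had relative signals of 7.42, 7.54 and 7.40 in Col at DAE14, 5.01, 5.29 and 5.14 in Col at DAE28, 6.49, 6.44 and 6.58 in gvs1-1 at DAE14, and 5.45, 5.49 and 5.81 in gvs1-1 at DAE28. PSBW (AT2G30570), which stabilises photosystem II supercomplexes, had 8.72, 8.93 and 8.70 in Col at DAE14, 6.69, 6.90 and 6.83 in Col at DAE28, 7.96, 8.09 and 8.11 in gvs1-1 at DAE14, and 7.27, 7.24 and 7.43 in gvs1-1 at DAE28. In both, Col was above gvs1-1 at DAE14 and below it at DAE28 without overlap. The other photosystem II genes, PSBO2, PSBP-1 (the PsbP protein), PSBX and PSBTN, all fell, with changes of -3.31 to -2.07 in Col and of -1.74 to -0.79 in gvs1-1. With quantile normalization PSBP-1 did not pass in Col (-0.44) or in gvs1-1 (-0.16), and in gvs1-1 PSBX had a value of 0.002 and PSBW had 0.04.

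In electron transport, ATPD (AT4G09650), the delta subunit of the chloroplast ATP synthase, had the largest falls in both genotypes. Its relative signals were 5.83, 5.80 and 5.69 in Col at DAE14, 1.36, 2.25 and 2.61 in Col at DAE28, 5.98, 5.72 and 5.45 in gvs1-1 at DAE14, and 2.96, 2.90 and 3.18 in gvs1-1 at DAE28. ATPC1 (AT4G04640), the gamma subunit, had 6.88, 6.76 and 6.74 in Col at DAE14, 4.20, 4.90 and 5.02 in Col at DAE28, 6.95, 6.80 and 6.68 in gvs1-1 at DAE14, and 5.30, 5.29 and 5.47 in gvs1-1 at DAE28. For both genes the genotypes overlapped at DAE14, and Col DAE28 replicate 1 was the lowest of its group. The difference in age change was 1.00 ± 0.38 for ATPD (limma adjusted p = 0.091) and 0.63 ± 0.26 for ATPC1 (adjusted p = 0.12), and neither passed. Both passed with slide or scan day as a block, at 1.98 and 1.27. With these blocks the difference in age change equals that on scan day 1 alone. It therefore rests on Col DAE28 replicate 1 and gvs1-1 DAE14 replicate 3 for those groups. In the fit with no block and without Col DAE28 replicate 1 the differences were 0.64 for ATPD and 0.38 for ATPC1. With averaged probes and all arrays ATPC1 passed, at 0.88, and its other probe had 1.13. With slide or scan day as a block the difference in age change no longer passed for PSBO1 (0.66), PSBR (0.50 against 1.23), FD1 (0.96) and PETM (0.83).

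PETM (AT2G26500), a small subunit of the cytochrome b6f complex, had the smallest falls of this group. Its relative signals were 6.65, 6.60 and 6.54 in Col at DAE14, 4.74, 4.57 and 4.41 in Col at DAE28, 6.05, 5.73 and 6.06 in gvs1-1 at DAE14, and 4.89, 4.81 and 5.40 in gvs1-1 at DAE28. PETE2 (AT1G20340), the main plastocyanin gene, had 8.35, 8.55 and 8.35 in Col at DAE14, 5.50, 5.71 and 6.02 in Col at DAE28, 7.61, 7.73 and 7.77 in gvs1-1 at DAE14, and 6.42, 6.43 and 6.92 in gvs1-1 at DAE28, and its difference in age change, 1.55 ± 0.23, was the largest in electron transport. PETC (AT4G03280), the Rieske iron-sulphur protein of the cytochrome complex, fell by 2.56 ± 0.13 in Col and by 1.83 ± 0.13 in gvs1-1. FNR1 and FNR2, the leaf ferredoxin-NADP reductases, fell by 2.40 ± 0.11 and 2.45 ± 0.11 in Col and by 1.24 ± 0.11 and 1.26 ± 0.11 in gvs1-1.

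The interaction asks whether the age change differed between the genotypes. It passed for 31 of the 34 genes, each with the smaller fall in gvs1-1, where 9.91% of all genes tested passed with a higher value; the median was 1.31 in photosystem I, 1.31 in photosystem II and 1.1 in electron transport, against 0.07 over all genes. It did not pass for PSB28, ATPC1 and ATPD, of which ATPC1 passed with averaged probes (0.88). As a share of the change in Col, the change in gvs1-1 had a median of 0.416 in photosystem I, 0.443 in photosystem II and 0.576 in electron transport, with a range of 0.298 to 0.836 over the 34 genes. The difference between the groups of genes was not tested. Across the 34 genes the age changes in the genotypes correlated at r = 0.87 (Spearman 0.82); these are genes of the same arrays and not independent replicates.

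With quantile normalization 19 of 34 genes passed the interaction, with medians of 0.83, 0.58 and 0.72 in the order above. A total of 24 passed in the authors' table, with medians of 0.90, 0.83 and 0.90, and 27 passed with cyclic loess. PETC passed at 0.74 ± 0.19 and FD1 at 0.71 ± 0.19, but PETC did not pass without Col DAE14 replicate 1 or 3, gvs1-1 DAE14 replicate 2 or gvs1-1 DAE28 replicate 2 or 3 (0.68 to 0.74). FD1 did not pass without any Col DAE14 replicate, gvs1-1 DAE14 replicate 2 or 3 or gvs1-1 DAE28 replicate 2 or 3 (0.61 to 0.72). Without Col DAE28 replicate 3 ATPD passed, at 1.27. On the arrays of scan day 1 alone, which hold a single Col DAE28 and a single gvs1-1 DAE14 array, 30 genes passed, with medians of 1.43, 1.52 and 1.30.

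**Figure D2:**
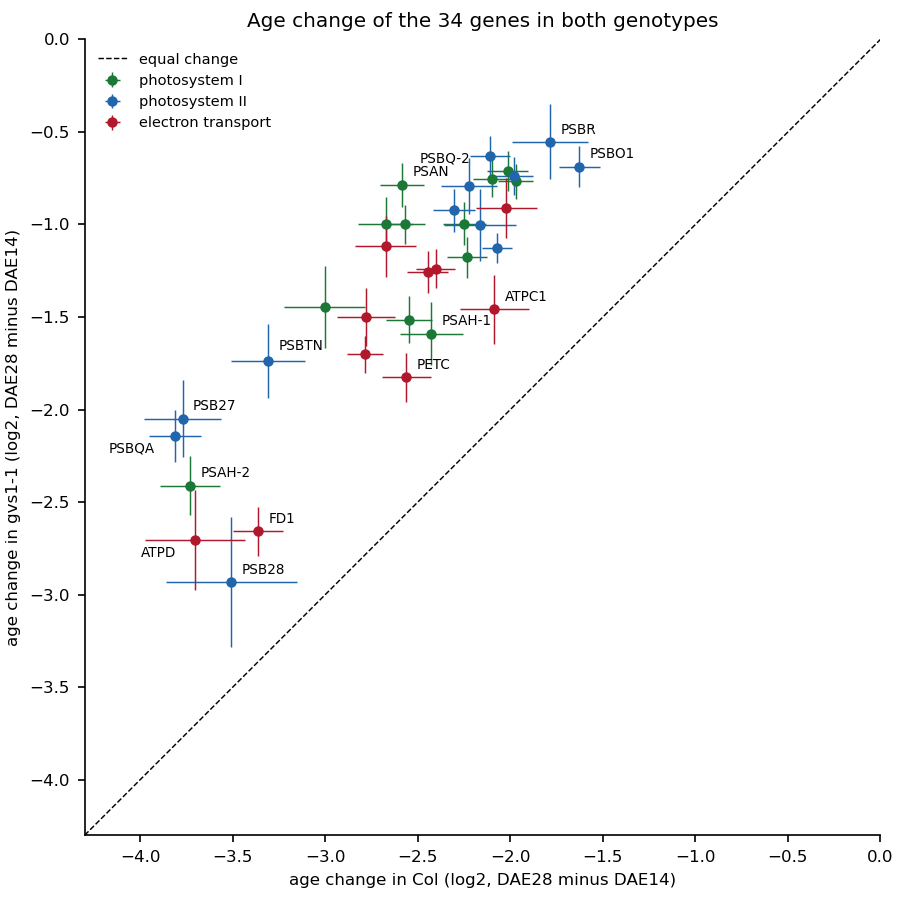
Age change (DAE28 minus DAE14, log2, ± SE of the fit) of the 34 genes in Col on the horizontal axis and in gvs1-1 on the vertical axis, coloured by photosystem I, photosystem II and electron transport. All points lie above the dashed line of equal change; PSB28 lies nearest to an equal share at 0.836 and PSBQ-2 farthest at 0.298, and with quantile normalization 7 genes had a value above 0 on the vertical axis.

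At DAE14 the genotype comparison asks whether these genes already differed at the earlier stage. 9 of the 34 genes were lower in gvs1-1, where 0.266% of all genes tested were lower: PSAD-1, PSAE-1, PSAF, PSAN and PSAO of photosystem I and PSBO1, PSBQ-2, PSBW and PSBY of photosystem II, and 0 of the 10 electron transport genes. At an unadjusted p under 0.05 by limma there were 5 of these 10, where 3194 of the 19152 genes tested were in either direction. PSAN had -1.04 ± 0.12 and PSAE-1 -0.96 ± 0.11 (limma adjusted p = 0.014 in both), and PSBY had -0.95 ± 0.12 with the same adjusted p. PSBQ-2 had -0.90 ± 0.11 and PSAO -0.64 ± 0.10, the smallest of the 9. The medians were -0.55 in photosystem I, -0.52 in photosystem II and -0.19 in electron transport, against 0.01 over all genes and 0.01 over the brightest 10%; with quantile normalization they were -0.016, -0.029 and 0.021, and in the authors' table -0.054, -0.036 and -0.054. Samples of gvs1-1 lay below those of Col without overlap at DAE14 for 27 genes, where 15.7% of all genes tested did, and overlapped for PSAH-1, PSB28, PETC, PETE1, FD1, ATPC1 and ATPD.

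These calls depended on the scaling and on single arrays. With quantile normalization, in the authors' table and with slide or scan day as a block 0 of the 34 genes passed, and PSAO changed sign with quantile normalization (0.04) and in the authors' table (0.23). The values of the 9 genes did not move alike under these settings. With quantile normalization they ran from -0.38 (PSBY) to 0.04 (PSAO). With slide as a block they ran from -1.29 (PSAN) to -0.52 (PSBO1), and with scan day as a block from -1.02 (PSAN) to -0.59 (PSBO1). Without Col DAE14 replicate 1, 2 or 3 the count was 1, 2 and 0, without Col DAE28 replicate 1 or 2 it was 14 and 5, without gvs1-1 DAE14 replicate 1 or 2 it was 4 and 0, and without gvs1-1 DAE28 replicate 1 or 2 it was 5 and 5. Leaving out an array of DAE28 left the DAE14 values as they were and altered only the pooled spread. On scan day 1 alone, where gvs1-1 DAE14 is replicate 3, 0 passed, with medians of -0.50, -0.52 and -0.28. Over the same samples all 8 leaf markers had values below 0 at DAE14, from -0.96 to -0.56 with a median of -0.70, and 1 of them, Rubisco activase, passed. Of the 19152 genes tested 3194 had an unadjusted p under 0.05 by limma in either direction, and 7 of the 8 leaf markers did. Their part in the differences was not tested.

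At DAE28 the genotype comparison was the reverse. 30 of the 34 genes were higher in gvs1-1, where 17.9% of all genes tested were higher: all 12 of photosystem I, 9 of 12 of photosystem II and 9 of 10 of electron transport. The medians were 0.79, 0.63 and 0.83, against 0.04 over all genes and 0.07 over the brightest 10%, and they stayed above 0 in each scaling tried. Some calls were lost. With quantile normalization PSAD-1 (0.19), PSAO (0.31), PSBP-1 (0.62) and PSBW (0.33) did not pass. Neither did PSBY (0.32) and ATPC1 (0.54) with cyclic loess or PSBY (0.36) with median centring. PSBQA had the largest difference, 1.36 ± 0.14, a 2.57-fold higher level, followed by PSB27 with 1.29 ± 0.21, PSBTN with 1.28 ± 0.20 and PETE1 with 1.21 ± 0.16. PSBO1 (0.20 ± 0.11), PSBR (0.08 ± 0.20), PSB28 (0.68 ± 0.35) and PETM (0.46 ± 0.16) did not pass. PSBO1 did pass with averaged probes (0.56) and in the authors' table (0.49), and its other 2 probes had 0.65 and 0.84. PETM passed with averaged probes (0.56), in the authors' table (0.57) and with the 95th percentile (0.52). In the main fit only PSBO1, PSBR and PSB28 had overlapping samples. So 31 of the 34 genes were higher without overlap, where 24.3% of all genes tested were. At this stage 6 of 10 senescence markers were lower and 5 of 8 leaf markers higher in gvs1-1.

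With slide as a block 11 of the 34 genes passed at DAE28, with medians of 0.64, 0.42 and 0.69, and on scan day 1 alone 28 passed, with 0.99, 0.91 and 1.06. Without gvs1-1 DAE28 replicate 3 PSBY (0.32), ATPC1 (0.59) and ATPD (0.86) did not pass, and neither did ATPC1 (0.67) and ATPD (0.97) without gvs1-1 DAE28 replicate 1. PSB28 passed without Col DAE28 replicate 3 (1.03), and PETM without Col DAE28 replicate 1 (0.55) or gvs1-1 DAE28 replicate 2 (0.57). Without Col DAE28 replicate 1 the values of PSBP-1, ATPC1 and ATPD were 0.54, 0.39 and 0.58, against 0.81, 0.64 and 0.94, and those of PSB28 and PSBR, which did not pass, were 0.36 and 0.34 against 0.68 and 0.08. That array was the lowest of its group for 28 of the 34 genes and the highest for 3. In gvs1-1 at DAE28 replicate 3 was the highest of its group for 29 of the 34 genes.

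**Figure D3:**
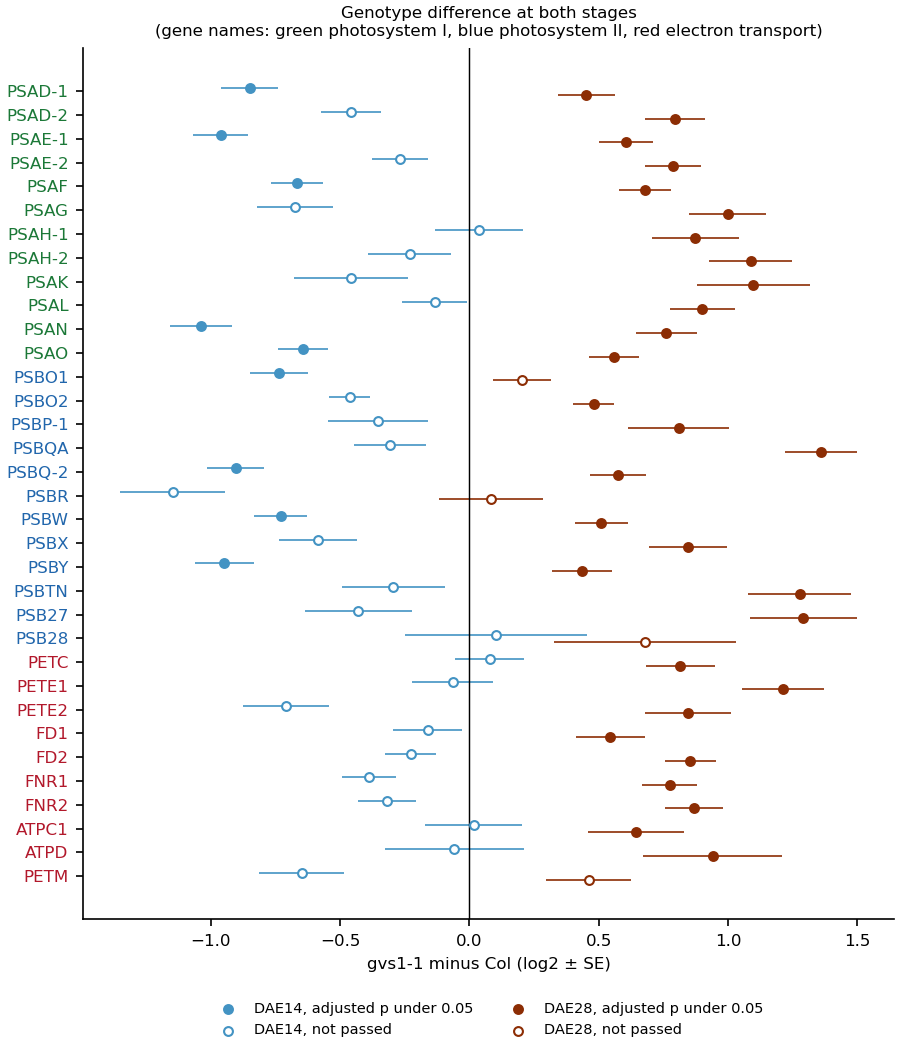
Genotype difference (gvs1-1 minus Col, log2 ± SE of the fit) of the 34 genes at DAE14 in blue and at DAE28 in brown; filled points passed at a limma adjusted p under 0.05. At DAE14 9 genes are filled and at DAE28 30, with all filled points of DAE14 left of 0 and all of DAE28 right of it; with quantile normalization 0 passed at DAE14 and PSAO was at 0.04 there.

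8 subunits are encoded by a pair of genes among the 34, and within an array the difference between 2 paralogues does not depend on a common scale factor. An exact permutation of stage labels within each genotype (400 arrangements, smallest p 0.005, two-sided) was adjusted over the 8 pairs. In all 6 pairs that passed, the gene with the brighter probe, over all arrays and also in Col at DAE14 alone, fell less, and the part of brightness was not tested. PSBQA fell further than PSBQ-2 by 1.61 on the log2 scale, with -1.70 in Col and -1.51 in gvs1-1 (exact permutation, adjusted p = 0.008). On single arrays PSBQA minus PSBQ-2 was -0.44, -0.61 and -0.56 in Col at DAE14, -2.49, -2.43 and -1.79 in Col at DAE28, 0.21, 0.09 and -0.10 in gvs1-1 at DAE14, and -1.32, -1.61 and -1.42 in gvs1-1 at DAE28. The stages did not overlap in either genotype, and at DAE14 gvs1-1 lay above Col by 0.60. That difference at DAE14 depended on the probe. For gvs1-1 minus Col the probes used had -0.31 (PSBQA) and -0.90 (PSBQ-2), and the other kept probes had -0.14 and -0.18.

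PSAH-2 fell further than PSAH-1, with a difference of 1.06 (1.30 in Col and 0.82 in gvs1-1; exact permutation, adjusted p = 0.008). PSAH-1 minus PSAH-2 was 0.59, 0.34 and 0.39 in Col at DAE14, 1.69, 1.94 and 1.61 in Col at DAE28, 0.81, 0.74 and 0.57 in gvs1-1 at DAE14, and 1.62, 1.50 and 1.47 in gvs1-1 at DAE28. The stages were again apart in both genotypes. FD1 (AT1G10960) fell further than FD2 (AT1G60950), the main leaf ferredoxin gene, with a difference of -0.77 (exact permutation, adjusted p = 0.008). FD1 had relative signals of 5.22, 5.20 and 5.23 in Col at DAE14, 1.70, 1.93 and 1.92 in Col at DAE28, 5.26, 4.95 and 4.95 in gvs1-1 at DAE14, and 2.14, 2.47 and 2.58 in gvs1-1 at DAE28. FD2 had 7.92, 8.16 and 7.84 in Col at DAE14, 5.08, 5.24 and 5.25 in Col at DAE28, 7.75, 7.73 and 7.76 in gvs1-1 at DAE14, and 5.99, 6.12 and 6.02 in gvs1-1 at DAE28. The difference was -0.58 in Col and -0.96 in gvs1-1, with stages apart in both.

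PSBO2 (AT3G50820), the second gene of the manganese-stabilising protein, fell further than PSBO1 by 0.44 in each genotype (exact permutation, adjusted p = 0.008). PSBO2 had relative signals of 7.18, 7.27 and 7.18 in Col at DAE14, 5.09, 5.25 and 5.07 in Col at DAE28, 6.75, 6.70 and 6.79 in gvs1-1 at DAE14, and 5.59, 5.64 and 5.63 in gvs1-1 at DAE28. The difference was 0.33 and did not pass when all kept probes of a gene were averaged. PSAD-2 (AT1G03130) fell further than PSAD-1 by 0.26 (exact permutation, adjusted p = 0.0133), with samples of 7.23, 7.28 and 7.18 in Col at DAE14, 4.74, 5.15 and 5.05 in Col at DAE28, 6.72, 6.74 and 6.85 in gvs1-1 at DAE14, and 5.70, 5.71 and 5.91 in gvs1-1 at DAE28. The PSAD difference was -0.02 with averaged probes and -0.21 in the authors' table, so its direction was not stable. PETE1 (AT1G76100), the second plastocyanin gene, had 5.45, 5.65 and 5.46 in Col at DAE14, 2.43, 2.80 and 2.99 in Col at DAE28, 5.49, 5.54 and 5.33 in gvs1-1 at DAE14, and 3.71, 3.98 and 4.16 in gvs1-1 at DAE28. It fell further than PETE2 by 0.24 (exact permutation, adjusted p = 0.008), but the difference was 0.43 in the other direction with averaged probes. PSAE-1 and PSAE-2 differed by -0.08 (exact permutation, adjusted p = 0.606), and by 0.44 with quantile normalization. That -0.08 is the mean of opposite values, -0.33 in Col, where the stages did not overlap, and 0.18 in gvs1-1, where they did. FNR1 and FNR2 differed by 0.03 (exact permutation, adjusted p = 0.635).

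**Figure D4:**
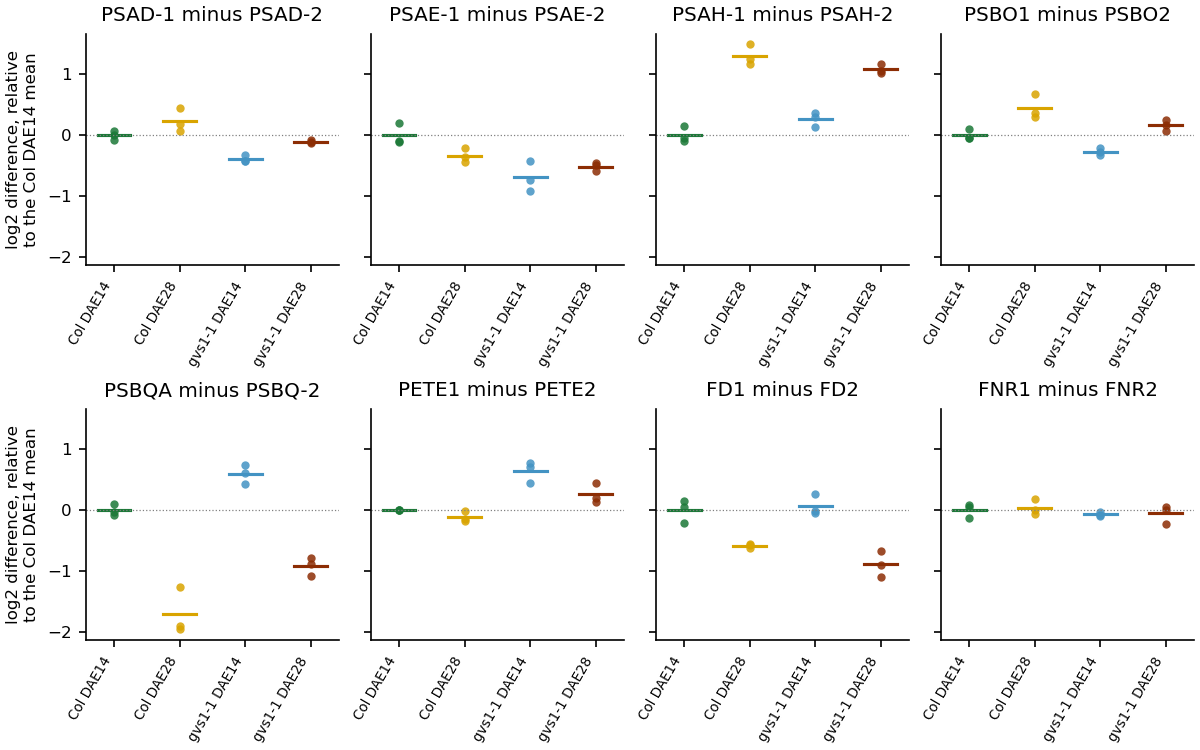
Difference in relative signal (log2) between the 2 genes of each of 8 paralogue pairs on each array, set relative to its mean in Col at DAE14; points are samples and lines are group means of 3 samples. The PSBQ difference drops by 1.70 in Col and 1.51 in gvs1-1 with age and the PSAH difference rises by 1.30 and 0.82, whereas the FNR difference stays within 0.04; the PSAD and PETE directions turn when probes are averaged, PSAD also in the authors' table, and PSAE with quantile normalization.

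Probe brightness moved with these values. Across the 34 genes the mean relative signal of the probe correlated at r = 0.68 with the age change in Col, at r = 0.80 with that in gvs1-1 and at r = -0.64 with the genotype difference at DAE14, across genes that share arrays and scaling. The mean is taken over all 12 arrays, so a gene that falls further has a lower mean by construction; with the signal of Col at DAE14 alone, which also enters these differences except the age change in gvs1-1, the values were 0.57, 0.73 and -0.68. The first was 0.91 with quantile normalization and 0.33 with averaged probes. The last was 0.004 with quantile normalization and 0.15 in the authors' table. Among the 22 genes with several kept probes, the brightest probe over all arrays, which was used here and chosen by a mean that includes DAE28, fell less than the mean of the others in 19 genes in Col and in 21 in gvs1-1. For PSBO1 the other 2 probes had -2.46 in Col against -1.63, and for PETE2 the other 3 had -3.65 against -2.67. All 85 probes were lower at DAE28 in both genotypes and all 85 were higher in gvs1-1 at DAE28, while 76 were lower in gvs1-1 at DAE14. Of the 9 genes that passed at DAE14 8 had other probes. The means of these other probes were -0.20, -0.18 and -0.24 for PSBY, PSBQ-2 and PSAO. For PSAN, PSAD-1 and PSAE-1 they were -0.90, -0.79 and -0.69. They were -1.26 and -0.96 for PSBW and PSBO1, where the brightest had -0.73 and -0.74. In electron transport the other probes had means of -0.71, -0.35 and -0.10 for FD2, ATPC1 and PETC. The brightest had -0.23, 0.02 and 0.08 there. For PETM, FNR1 and PETE2 the others had -0.09, -0.15 and -0.70, and the brightest had -0.65, -0.39 and -0.71. Single probes differed within a gene. The other PSAD-1 probes had -0.27, -0.55, -0.25 and -2.09 against -0.85 for the brightest, the last from a dim probe (mean relative signal -3.96). Those of PSAE-1 had -1.29, -0.80 and 0.02 against -0.96. The part of brightness in the differences was not tested.

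**Figure D5:**
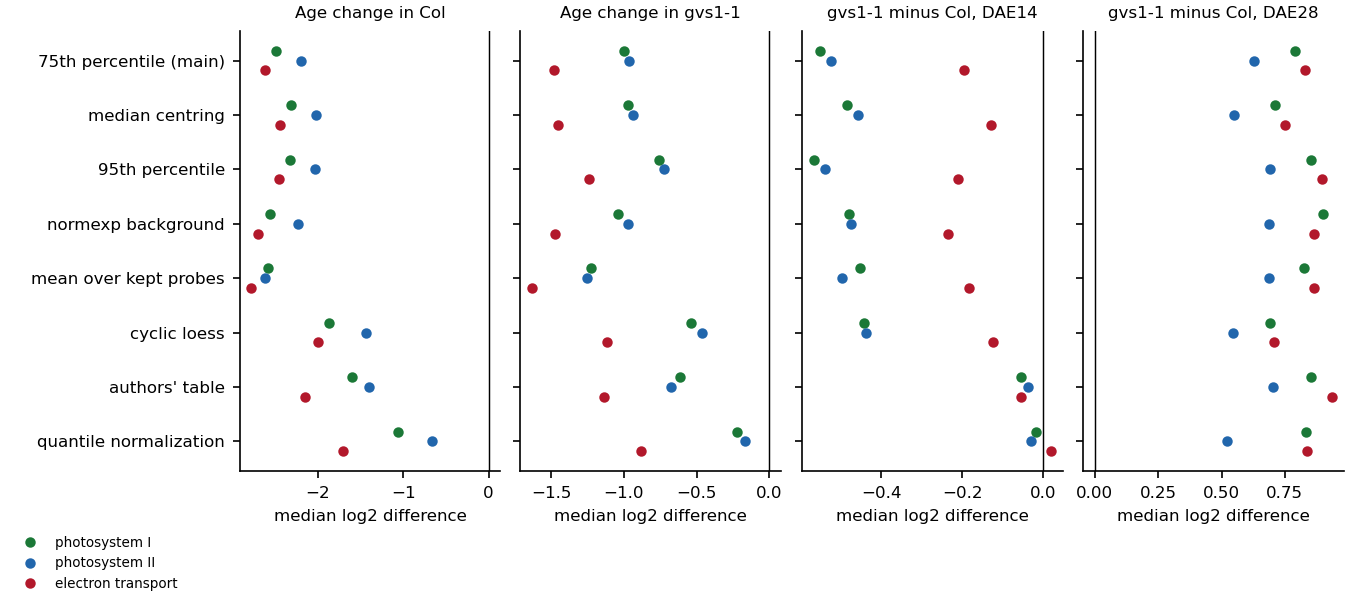
Median log2 difference of the photosystem I, photosystem II and electron transport genes in 4 comparisons under the main scaling and 7 other ways of scaling or summarising the arrays. The age change in Col stays below 0 and the difference at DAE28 above 0 in each; the age change in gvs1-1 shrinks to -0.22 and -0.17 in the photosystems with quantile normalization, and at DAE14 the electron transport median turns to 0.02.

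The surrounding machinery was described from lists of related genes. Of 16 assembly factors of the thylakoid complexes, 14 fell in Col and 14 in gvs1-1, 12 were higher and 1 lower in gvs1-1 at DAE28 (15.1% of all genes were lower), and 5 passed the interaction. Their median age changes were -1.92 and -1.41. The locus AT1G71500 fell by 2.83 ± 0.18 in Col, the largest fall of the list, and LPA1, an assembly factor of photosystem II, by 1.12 ± 0.11. The factor lower in gvs1-1 at DAE28 was HCF164, a thioredoxin-like protein needed for cytochrome b6f assembly, at -0.47 ± 0.14, and it did not pass with age in Col (0.30 ± 0.14).

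The chloroplast NADH dehydrogenase-like complex carries electrons from ferredoxin back to plastoquinone. Of its 14 nuclear subunits 13 fell in Col and 12 in gvs1-1, with medians of -3.02 and -1.92; 10 were higher in gvs1-1 at DAE28 and 3 passed the interaction. PnsB3 changed by -5.25 ± 0.58 in Col and by -3.52 ± 0.58 in gvs1-1, and NdhO, at the lower end, fell by 1.61 ± 0.30 in Col. At DAE14 0 genes of this list passed (0 also at an unadjusted p under 0.05 by limma), and 0 of the assembly factors (1 at an unadjusted p under 0.05). Of the 19152 genes tested 3194 had an unadjusted p under 0.05 by limma there.

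Regulators of cyclic electron flow and state transitions were mixed. Of 9 such genes 6 fell and 2 rose in Col, where 35.7% of all genes rose. Those that rose were PGRL1B, a partner of PGR5 in cyclic electron flow, with 1.26 ± 0.19, and IM, the plastid terminal oxidase, with 1.24 ± 0.10. Both also rose in gvs1-1, by 0.52 ± 0.19 and 0.74 ± 0.10, where 31.4% of all genes rose, and both were lower in gvs1-1 at DAE28 (-0.59 ± 0.19 and -0.64 ± 0.10). Tic62, which tethers ferredoxin-NADP reductase to the thylakoid, fell by 3.98 ± 0.29 in Col, and the kinase STN7 by 0.29 ± 0.09. Among 4 measured ferredoxins and reductases outside the leaf photosynthetic chain, FD3, the root-type ferredoxin, rose by 1.01 ± 0.11 in Col and by 0.49 ± 0.11 in gvs1-1, opposite to FD1 and FD2. FdC2 fell by 1.94 ± 0.20 in Col, and the root-type reductases RFNR1 (-0.08 ± 0.11) and RFNR2 (0.08 ± 0.16) did not pass. Of 2 further ATP synthase genes, PDE334, the b' subunit, fell by 1.73 ± 0.12 in Col and ATPC2, a second gamma subunit gene, rose by 0.54 ± 0.10.

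Plastid-encoded loci were measured only in the authors' deposited table, which holds 16 of 17 loci listed. A limma fit to its log2 values had 10 lower (31.7% of all loci) and 3 higher (37.1%) with age in Col, and 8 lower (26.1%) and 1 higher (31.3%) in gvs1-1. The medians were -0.73 and -0.31, against -1.60, -1.40 and -2.15 in Col for photosystem I, photosystem II and electron transport in the same table. At DAE28 7 of the 16 were higher in gvs1-1 (15.0% of all loci) and 6 passed the interaction (8.29%).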

How the data were processed

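Total RNA of 12 leaf samples was hybridised to one-colour Agilent arrays, per the labels. The deposited scanner files hold spot intensities on a linear scale, extracted with Feature Extraction 11.5.1.1 per the file headers (11.5 per the submitters' processing notes), and the processed signal is the authors' background-corrected intensity. The authors' deposited table holds log2 values for 21266 loci, with its scaling between arrays not given in the sources used here, and it served as an alternative and for plastid loci. The files name the TAIR10 build and loci came from a TAIR10.1 table, so no coordinates are printed.

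Each array had 43603 probes, of which 34348 matched a locus. After 166 outlier-marked probes were left out, log2 processed signal was taken relative to each array's 75th percentile. A probe was kept where all 3 arrays of 1 or more groups had it well above background (26801 probes), and the brightest of each gene gave 19152 genes. One limma fit (limma 3.58.1, R 4.3.3) over 4 group means gave the age change in each genotype, the genotype difference at each stage and their interaction, two-sided, with Benjamini-Hochberg adjustment over all genes and a threshold of 0.05. Precision is limited by the number of arrays, and p-values measure the spread between these samples. On simulated data for the age change in Col over 19152 genes, the fit recovered 69 of 100 genes changed by 1 on the log2 scale and 90 of 100 changed by 2, with 11 false calls. The simulated arrays had independent noise, no slide or scan day effect and no other changed genes. In the data 36.3% of genes were lower and 35.7% higher with age in Col. These figures therefore do not give the recovery or the false calls in that comparison.

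The members and gene lists were chosen with earlier results of these data known. Values on every array were given, per group of genes, for the largest and smallest age changes and interactions, for up to 3 genes that passed at DAE14 and for paralogue pairs that differed. Alternatives were other scalings, normexp background (on the median signal, since the files hold no mean signal), probe filters, averaged probes, the authors' table, slide, scan day or replicate number as a block, and each array left out. Normexp on the median signal and cyclic loess were added after seeing the data. 0 columns belonged to other samples.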

Additional observations from a re-analysis of the deposited data

Results flagged for a closer look

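The age change differed between gvs1-1 and Col for 31 of the 34 genes by a test of the difference itself, the interaction term of the limma fit at an adjusted p under 0.05. Values are log2 differences between the age changes (gvs1-1 minus Col), and a positive one means the smaller fall in gvs1-1. In photosystem I they were 1.80 for PSAN, 1.67 for PSAG, 1.57 for PSAE-1, 1.56 for PSAK, 1.35 for PSAF, 1.32 for PSAH-2, 1.30 for PSAD-1, 1.25 for PSAD-2, 1.20 for PSAO, 1.06 for PSAE-2, 1.04 for PSAL and 0.84 for PSAH-1. Photosystem II genes had 1.72 for PSB27, 1.67 for PSBQA, 1.57 for PSBTN, 1.48 for PSBQ-2, 1.43 for PSBX, 1.38 for PSBY, 1.24 for PSBW, 1.23 for PSBR, 1.16 for PSBP-1, 0.94 for PSBO2 and 0.94 for PSBO1. For electron transport they were 1.55 for PETE2, 1.28 for PETE1, 1.19 for FNR2, 1.16 for FNR1, 1.11 for PETM, 1.08 for FD2, 0.74 for PETC and 0.71 for FD1. Of the 34 genes 19 passed with quantile normalization and 24 in the authors' table. Genotype and slide cannot be fully told apart in these values.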

How the results depend on the processing

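The 5 counts of genes, 15 group medians and 8 paralogue differences were recomputed under those of 27 alternatives (12 of them leaving out 1 array) that could be run for each, which gave 644 values. In 557 of these the direction and the side of the threshold, or the size, were kept, and in 87 they were not; 176 of the 644 were identical to the reported value, among them values whose arrays the alternative did not touch. The cause of the changes below was not tested. With quantile normalization the age change in gvs1-1 passed as lower for 19 genes and as higher for PSBR. The interaction then passed for 19 genes and the difference at DAE14 for 0. Medians for photosystem I, photosystem II and electron transport then were -1.06, -0.66 and -1.71 for age in Col, -0.22, -0.17 and -0.88 for age in gvs1-1, -0.016, -0.029 and 0.021 at DAE14, and 0.83, 0.58 and 0.72 for the interaction. With cyclic loess they were -1.86, -1.43 and -2.00 for age in Col, -0.54, -0.46 and -1.12 for age in gvs1-1, and 1.06 and 1.07 for the interaction in the photosystems. In the authors' table they were -1.60, -1.40 and -2.15, then -0.61, -0.67 and -1.13 for age in gvs1-1, with -0.054 and -0.036 at DAE14 and 0.90 and 0.83 for the interaction in the photosystems. The photosystem medians for age in Col were -2.32 and -2.02 with median centring and -2.33 and -2.03 with the 95th percentile, which gave -0.76, -0.72 and -1.24 for age in gvs1-1. Averaged probes gave -2.62 in photosystem II for age in Col, and -1.22 and -1.25 in the photosystems for age in gvs1-1. Relative to these, the median of all genes for age in Col moved from 0.01 to 0.18 with median centring, to 0.17 with the 95th percentile and to -0.33 with no filter on dim probes.

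On slide 1 alone, on scan day 1 alone and with slide as a block the age change in Col was -2.51 in photosystem II and -2.86 in electron transport, resting on Col DAE28 replicate 1. With scan day as a block it was -2.35 in photosystem II, and -1.23 in electron transport for gvs1-1. The photosystem II interaction was 1.52 with either block and on scan day 1 alone. These settings give the same interaction estimate because of how the arrays were laid out, so they are not separate checks. In it Col DAE28 rests on replicate 1 and gvs1-1 DAE14 on replicate 3. With slide as a block the difference at DAE14 was -0.85, -0.91 and -0.53, and at DAE28 11 genes passed with 0.42 in photosystem II. On scan day 1 alone the DAE28 medians were 0.99, 0.91 and 1.06.

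At DAE14 the count of 9 became 4 with median centring, 2 with normexp, 5 with no filter on dim probes, 5 with averaged probes, 3 with a replicate block, and 0 in the authors' table, with slide or scan day as a block and on scan day 1 alone. Deviations of same-numbered samples from their group means correlated at -0.27 to 0.51 and those of others at -0.49 to 0.29. Between Col and gvs1-1 at DAE14 the same-numbered correlations were 0.51, 0.38 and -0.10 for replicates 1, 2 and 3. Crossing replicates 1 and 2 there gave -0.46 and -0.49. Whether replicate numbers pair samples was not tested. Leaving out 1 array at a time gave 34 genes in each fit for age in Col, 33 to 34 for age in gvs1-1, 0 to 14 at DAE14, 27 to 31 at DAE28 and 28 to 32 for the interaction, and the photosystem I median for age in Col ran from -2.55 to -2.32.

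In gvs1-1 the age change had the other sign with quantile normalization for PSAD-1 (0.088), PSAF (0.0056), PSBO1 (0.067), PSBQ-2 (0.14), PSBR (0.28), PSBW (0.041) and PSBX (0.0021), and for PSBR with cyclic loess (0.027) and in the authors' table (0.16). PSAO at DAE14 was 0.038 with quantile normalization and 0.23 in the authors' table. Among pairs, PSAD was -0.022 with averaged probes and -0.21 in the authors' table, PSAE 0.44 with quantile normalization, PETE 0.43 with averaged probes and -0.18 with normexp (not passed), and PSBO 0.33 with averaged probes (not passed). Every kept probe of these genes was above background on all 12 arrays, and the number of arrays limits the precision.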
